A study of Mus musculus with 2 samples.

Results

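The miR-200 family comprises 5 related miRNA hairpins, from 2 clusters in the mouse genome, and both arms of each hairpin were taken. Members were found by exact miRNA name among the array's probes, and all 10 were present among 1900 probes for mouse miRNAs. The samples were colonic epithelial cells isolated from C57BL/6 mice 8 weeks of age. One sample came from control mice (n = 1 array). The other came from mice with colon inflammation caused by dextran sulfate sodium (DSS), which damages the gut lining, supplied at 2.5% in drinking water over 5 days (n = 1 array). Whether cells of several mice were pooled is not stated by the sources used here. With 1 array per group no difference below was tested or checked in a replicate, precision is limited by the number of arrays, and effects of the array itself and of DSS cannot be told apart.

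miRNAs are short RNAs that repress messenger RNAs, mainly by pairing of their seed (bases 2 to 8) with sites in the message. The miR-200 family is known as a keeper of the epithelial state: its 3p arms, which act as the guide strands, repress the transcription factors Zeb1 and Zeb2, which in turn repress E-cadherin and the miR-200 genes themselves. In the gut it is a family of epithelial cells, and the opposing action of both sides is a textbook switch between epithelial and mesenchymal states. The 5p arms are the passenger strands of the same hairpins.

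The 3p arms fall into 2 seed groups that differ at base 4, and they are shown because each group can pair with its own kind of target site. All 10 mature sequences were found in RefSeq's miRNA table (GRCm38.p6). In the first group the seed, in capitals, is AAUACUG, which pairs with the site CAGUAUU.
mmu-miR-200b-3p: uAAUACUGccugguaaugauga
mmu-miR-200c-3p: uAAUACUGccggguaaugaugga
mmu-miR-429-3p: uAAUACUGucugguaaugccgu
In the second group the seed is AACACUG, which pairs with the site CAGUGUU.
mmu-miR-200a-3p: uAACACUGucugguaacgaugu
mmu-miR-141-3p: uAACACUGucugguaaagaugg
No other mature miRNA of the 1679 in that table carried either seed. Counted from the 5′ end, miR-200c-3p differs from miR-200b-3p by U11G and A22G, and miR-141-3p differs from miR-200a-3p by C17A and U22G. Each of these pairs has 20 of 22 compared bases in common. Probes of such near-identical sequences are not independent measurements, and how far they tell the members apart is not stated by the sources used here.

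The 5p arms are shown with bases 2 to 8 in capitals, because these arms vary more among themselves and were the dim arms of the family on the arrays.
mmu-miR-200b-5p: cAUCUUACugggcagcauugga
mmu-miR-200a-5p: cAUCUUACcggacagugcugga
mmu-miR-200c-5p: cGUCUUACccagcaguguuugg
mmu-miR-141-5p: cAUCUUCCagugcaguguugga
mmu-miR-429-5p: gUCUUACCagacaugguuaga
Only miR-200a-5p and miR-200b-5p share these 7 bases, and they differ at 5 of 22 positions.

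The hairpins of Mir200b, Mir200a and Mir429 lie within 1846 bases on the minus strand of chromosome 4 (chr4:156053905-156055750, GRCm38.p6), in that order of transcription. The annotation places a long non-coding RNA gene model, Gm13648, over this stretch. Mir200c and Mir141 lie within 477 bases on the minus strand of chromosome 6 (chr6:124717914-124718390, GRCm38.p6), with no other annotated gene over them, between Phb2 and Ptpn6. The hairpins of miR-200b and miR-200c, which gave the brightest 3p probes of their clusters, are printed with the 5p and then the 3p arm in capitals.
Mir200b (chr4:156055681-156055750): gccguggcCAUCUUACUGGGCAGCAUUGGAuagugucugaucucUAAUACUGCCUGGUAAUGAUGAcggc
Mir200c (chr6:124718322-124718390): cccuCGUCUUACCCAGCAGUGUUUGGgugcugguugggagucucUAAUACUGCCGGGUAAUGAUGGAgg

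A probe was counted as measured where its spot was brighter than the mean of the blank spots plus 2 SD on that array. The blank mean was 92.7 for control and 121.8 for DSS, so the DSS array was brighter before any RNA signal, and brightness is therefore given below as intensity over this blank mean. By that rule 7 of the 10 family probes were measured on both arrays, against 52.4% of all 1899 probes used. miR-141-3p passed on the DSS array alone, and miR-141-5p and miR-429-5p on neither. All 5 of the 3p arms were measured on the DSS array and 4 on the control array. Of the 5p arms 3 were measured on each array.

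Depth of signal was uneven across the series. The control array measured 1070 probes and the DSS array 1169, and 995 were measured on both. Spike control spots, each set of 8 spots per array, were 1.88-fold to 2.05-fold brighter, over blanks, with DSS. Of miRNAs known for differentiated gut epithelium, miR-192-5p, miR-194-5p, miR-215-5p and miR-375-3p were measured on both arrays. Of 8 smooth muscle and fibroblast miRNAs 7 were measured on both arrays as well, and so were 52.4% of all 1899 probes. Being measured on both arrays therefore cannot settle the labelled cell type. In bulk RNA, fewer cells of a type and less RNA per cell cannot be told apart.

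**Figure D1:**
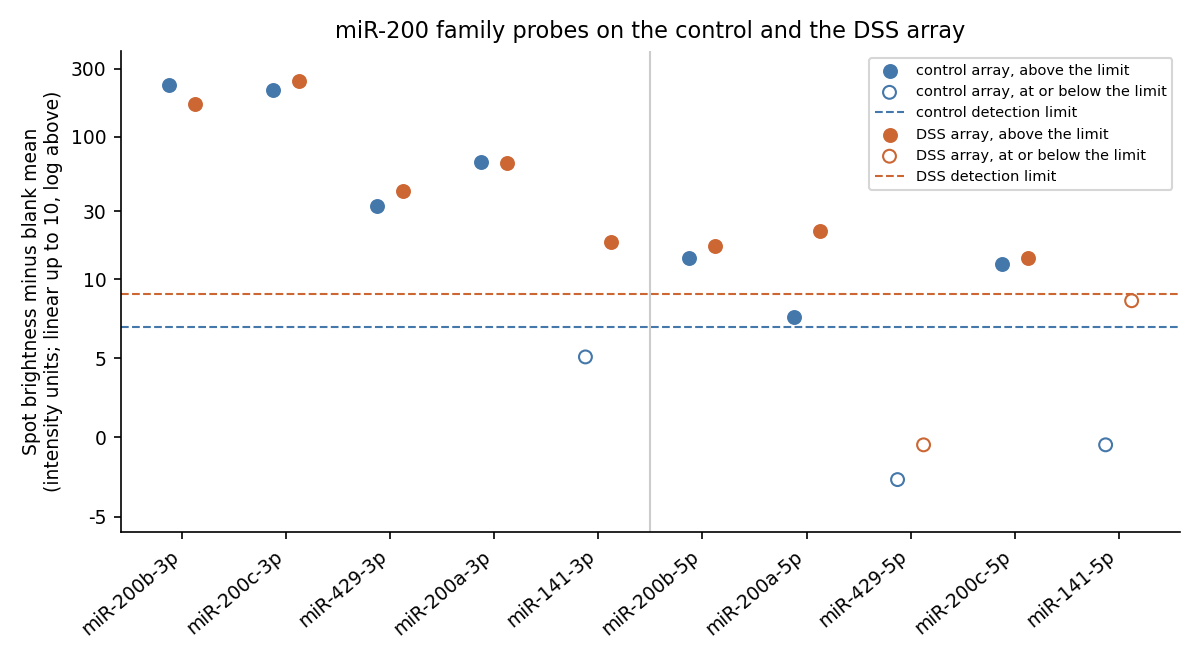
Spot brightness minus the blank mean (vertical axis, intensity units, linear up to 10 and logarithmic above) of the 10 family probes on the control and the DSS array, with 3p arms left and 5p arms right of the grey line. Filled points lie above the detection limit of their array (dashed) and open points at or below it. miR-200b-3p and miR-200c-3p stand highest on both arrays, while 5p arms stay under 22 units.

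The probe of miR-200c-3p, the chromosome 6 member with the AAUACUG seed, had a brightness over blanks of 213 for control and 244 for DSS. Its chromosome 4 counterpart, miR-200b-3p, had 229 for control and 170 for DSS. Before normalisation the former was thus brighter and the latter dimmer on the DSS array. miR-200a-3p, which carries the other seed, had 66.3 for control and 64.8 for DSS, close to level. miR-429-3p, the third product of the chromosome 4 cluster, had 32.5 for control and 41.6 for DSS. miR-141-3p, the partner of miR-200c on chromosome 6, had 5.09 on the control array, under the limit of 6.98 there, and 18.1 on the DSS array, over the limit of 9.06. For the 3p arms of the chromosome 4 cluster, which can derive from 1 transcript, the ratio of DSS to control over blanks ran from 0.741 for miR-200b-3p through 0.978 for miR-200a-3p to 1.28 for miR-429-3p. This order followed falling brightness on the control array. After the quantile normalisation described below, their log2 differences were 0.20, 0.20 and 0.22.

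To compare the arrays, spot intensities were background corrected with an offset of 50, log2 transformed and quantile normalised over all miRNA probes, and differences are given as DSS minus control. The offset shrinks the folds of dim probes. Of the 7 probes measured on both arrays, 6 were higher on the DSS array, against 48.1% of all 995. These were the 4 3p arms and 2 of the 3 5p arms. The 5p arms lie too near the blanks for their folds to be read. Without scaling between the arrays 6 of the 7 were higher as well, against 39.3%, and in the authors' values all 7, against 63.9%. With median scaling 4 were higher, against 21.7%, and with the files' spot background subtracted 5, against 49.4%. Left unscaled, a probe without signal also came out higher: miR-429-5p, under the blank mean on both arrays, was 0.12. Unscaled differences of miR-200b-5p (0.11), miR-200c-5p (0.08) and miR-200a-3p (0.02) did not exceed that, and miR-200b-3p was −0.31. The shares of all 995 were not matched for brightness. With scaling to the spike control spots, which moved the median of all 995 to −1.02, 0 of the 7 were higher. After quantile normalisation 0 of the 7 were at least 2-fold apart, against 1.51% of all 995. The median difference of the 7 was 0.20 and that of all 995 was −0.004. By arm it was 0.21 for the 4 3p arms and 0.04 for the 3 5p arms. The members entered this count because they were bright enough on both arrays, and the median over all 10 family probes, measured or not, was 0.20 as well.

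miR-200c-3p differed most, with a normalised log2 intensity of 7.86 for control and 8.54 for DSS. The difference of 0.68 equals 1.61-fold, and 97.8% of the 995 probes had a lower one. It was 0.17 without scaling, 0.07 after median scaling and −0.80 on the spike control scale. It lay just outside the central 95% of all differences, which ran from −0.76 to 0.65. It was the only family probe at least 1.5-fold higher, a size that 3.22% of all 995 reached. The authors' processed values for this probe were 120 for control and 192 for DSS, a ratio of 1.60. On the authors' scale the median log2 difference of all 995 was 0.21, and 79.0% had a lower difference than this probe. With the offset-corrected values left unscaled, 88.7% had a lower one. How far miR-200c-3p stood out thus depended on the processing. The probes nearest to miR-200c-3p in quantile normalised difference were sought among the 494 outside the family that were brighter than the median. They were miR-3069-3p (0.68), miR-23b-3p (0.69) and miR-6349 (0.67). Without scaling they did not stay together, at 0.48, 0.27 and −0.19, against 0.17 for miR-200c-3p.

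The other 3p arms stood close together after normalisation. miR-200b-3p went from 7.92 on the control to 8.12 on the DSS array, a difference of 0.20. Its raw spot was dimmer on the DSS array, at 291 against 322. Quantile normalisation works on ranks, and this probe ranked 184 of 1899 for control and 163 for DSS, which yields a positive difference. Without scaling between the arrays the difference was −0.31. The authors' values were 129 and 134, a ratio of 1.04. The direction of miR-200b-3p was thus set by the scaling.

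For miR-200a-3p the normalised values were 6.91 and 7.11, a difference of 0.20, and the authors' values 37.3 and 51.0. For miR-429-3p they were 6.54 and 6.77, a difference of 0.22, with authors' values of 18.3 and 32.8. Without scaling these differences were 0.02 for miR-200a-3p and 0.18 for miR-429-3p, after median scaling −0.08 and 0.08, and on the spike control scale they were −0.95 and −0.79. miR-141-3p allowed only a lower bound, at least 1.13-fold higher on the DSS array after quantile normalisation. The bound was not worked out for the other settings. On the authors' scale miR-141-3p was 14.2 on the DSS array and left empty on the control array. Being above the limit on the DSS array alone was also seen for 9.16% of the 1899 probes.

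**Figure D2:**
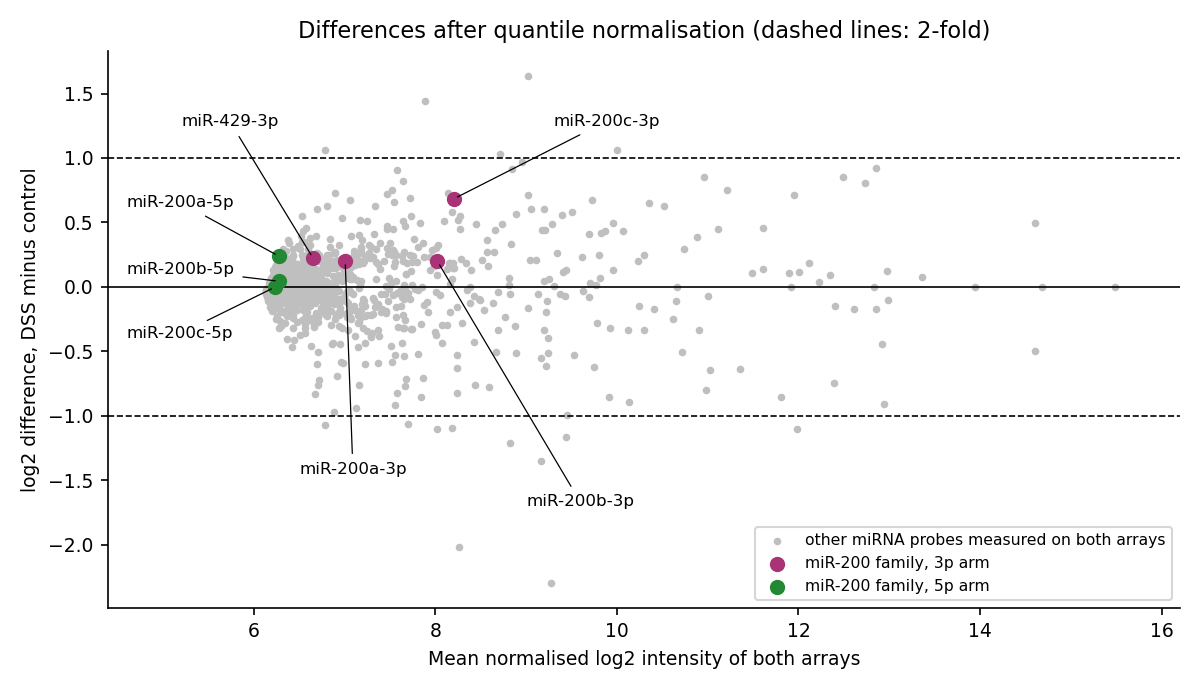
The log2 difference (DSS minus control, vertical axis) after quantile normalisation against the mean normalised log2 intensity (horizontal axis) for the 995 miRNA probes measured on both arrays, 1 point per probe. The 7 family probes are coloured by arm; miR-200c-3p stands at 0.68 and the other 6 between −0.001 and 0.24, all inside the dashed 2-fold lines.

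miR-200b-3p and miR-200c-3p share a seed and lie on different chromosomes. Of the pairs of 3p arms, only theirs stood apart under each processing tried by more than a spot spread taken from 1 setting. The log2 difference of miR-200c-3p exceeded that of miR-200b-3p by 0.48 after quantile normalisation, and by 0.48 when the same offset-corrected values were left unscaled or scaled by 1 factor per array, which cancels. The 11 settings include 4 that start from the same offset-corrected values with at most 1 factor per array and so share 1 value. Over all 11 the excess ran from 0.42 to 0.83, and in the authors' values it was 0.63. The 0.83 came from subtracting the files' spot background, which at miR-200c-3p on the control array exceeded the spot (310 against 305). Repeated spots of 11 control sets, 8 or 16 spots each per array, gave a root mean square spread of 0.15 for a log2 difference between the arrays and hence 0.21 for such an excess. Both are 1 SD, taken from the offset-corrected values left unscaled. The spread was not measured anew for settings with another offset or background correction. All 11 values lay beyond that spread, which covers spots within an array and not mice, cell isolations or hybridisations. This pair was singled out after the values were seen, from the 6 pairs among the 4 3p arms measured on both arrays.

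The other pairs depended on the processing. The excess of miR-200c-3p over miR-200a-3p was positive in all 11 settings but went from 0.15 to 0.61, with 7 beyond the spread. Against miR-429-3p it was 0.46 after quantile normalisation, −0.008 with the offset-corrected values left unscaled and −0.16 in the authors' values, which carry 1 factor per array and no offset. miR-429-3p and miR-200b-3p, of the same cluster, differed by 0.02 after quantile normalisation and by 0.49 with the offset-corrected values left unscaled.

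Among the 5p arms, miR-200b-5p had a brightness over blanks of 14.0 for control and 17.1 for DSS, and its normalised difference was 0.04. miR-200c-5p had 12.7 and 14.1, and a difference of −0.001. Of the 3 sets of negative control spots, miR-200c-5p lay below the brightest on each array and above the other 2, and miR-200b-5p lay above all 3. The brightest set averaged 13.2 over blanks for control (Negative Control 3) and 15.8 for DSS (Negative Control 1).

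miR-200a-5p had a brightness over blanks of 7.61 for control and 21.8 for DSS. It exceeded all 3 negative control sets on the DSS array and 2 of 3 on the control array, where it passed the limit by a narrow margin, at 2.18 SD above the blanks. Its normalised difference was 0.24. In the authors' values, made without an offset, it went from 4.29 to 17.2, which is 4.005-fold higher and the only family probe at least 2-fold apart on that scale, against 13.1% of all 995. With the limit at 3 SD above the blanks it counted as measured on the DSS array only, so this fold is poorly determined. miR-141-5p had −0.46 over blanks for control and 8.63 for DSS, and miR-429-5p −2.66 and −0.47, all under the limits.

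**Figure D3:**
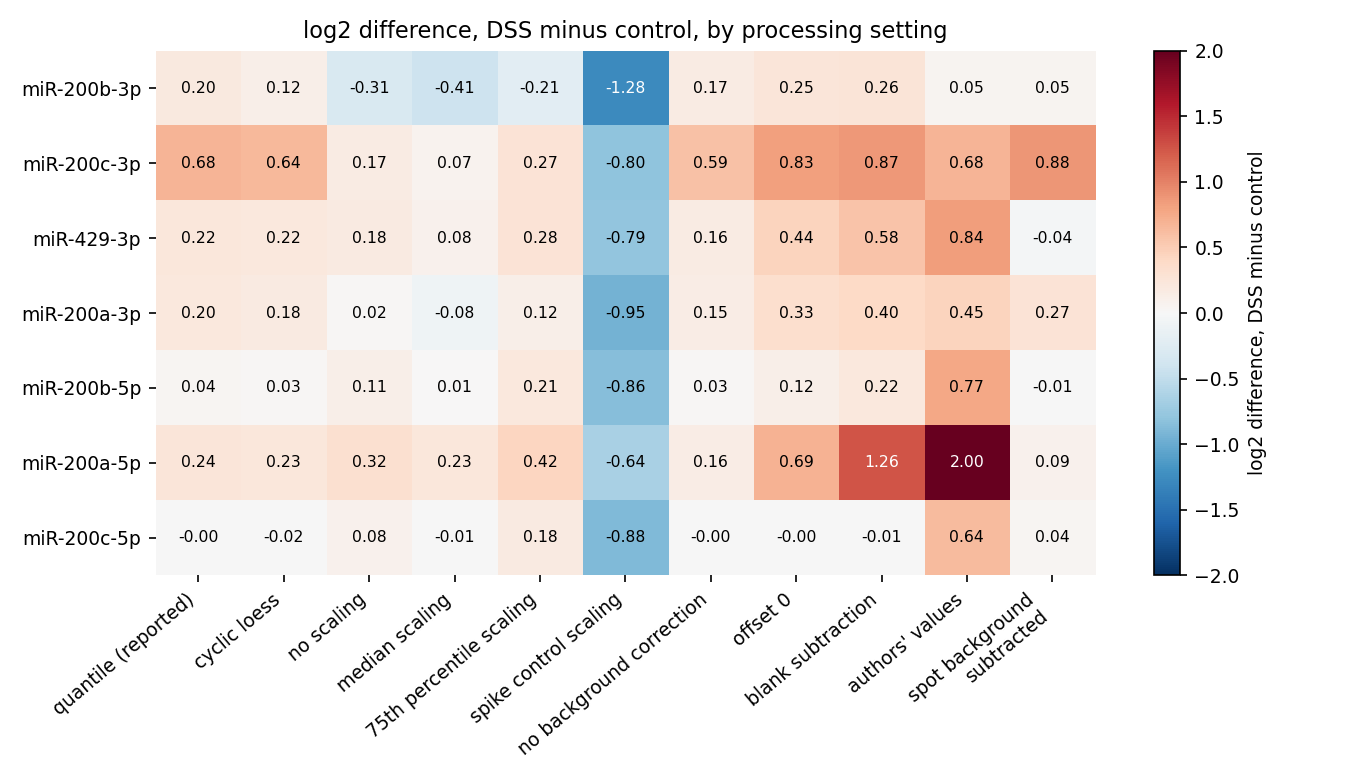
The log2 difference (DSS minus control, colour scale and printed value) of the 7 family probes measured on both arrays (rows) under 11 processing settings (columns). miR-200b-3p changes sign between settings, and every probe is below 0 with scaling to the spike control spots.

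The background value that the files give for each spot was itself high at the bright family spots. On the control array it was 310 at miR-200c-3p, whose spot was 305, and 167 at miR-200a-3p, whose spot was 159, so the given background exceeded the spot. On the DSS array it was 259 at miR-200c-3p (spot 365) and 144 at miR-200a-3p (spot 187). When this value was subtracted before the offset was added, the difference was 0.88 for miR-200c-3p, 0.27 for miR-200a-3p, 0.05 for miR-200b-3p and −0.04 for miR-429-3p. What pixels that value covers is not stated by the sources used here.

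Other miRNAs of the epithelial state were mostly at the limit. Of 8 listed, miR-205-5p, which also represses the ZEB factors, was measured on both arrays, with 10.02 over blanks for control and 30.6 for DSS and a difference of 0.36. A further 5 were measured on the DSS array only, against 9.16% of all 1899 probes (174), and 0 on the control array only, against 75 of all probes, while miR-183-5p and miR-34c-5p were measured on neither. Of the miR-183 cluster, miR-182-5p had 1.86 for control and 17.3 for DSS and miR-96-5p had 0.20 and 17.6. After quantile normalisation each was at least 1.12-fold higher. miR-203-3p, a miRNA of squamous epithelium, reached 10.03 over blanks on the DSS array, and the p53-induced miR-34a-5p and miR-34b-5p reached 10.4 and 9.46. All were under the 15.8 of the brightest negative control set there, Negative Control 1. Their lower bounds were 0.99-fold for miR-203-3p and miR-34a-5p and 0.98-fold for miR-34b-5p. Passing the limit on the DSS array alone therefore did not show them to be higher.

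Marker miRNAs of other cells also differed in brightness between the arrays. For reference, the median brightness over blanks of all measured probes was 44.4 for control (1070 probes) and 31.8 for DSS (1169 probes). These sets differ, with 75 probes measured on the control array only and 174 on the DSS array only. The 2 medians therefore give no ratio between the arrays. Each sum below includes probes under the limit and leaves out negative values. Summed over the list, brightness over blanks went from 580 for control to 599.5 for DSS for the 10 family probes. For the 4 gut epithelial miRNAs it went from 404 to 438, and for the 8 smooth muscle and fibroblast miRNAs from 1118 to 889. The 6 leukocyte miRNAs went from 56.4 to 161, of which the lymphocyte miRNA miR-150-5p alone went from 13.7 to 80.6, and the 3 red cell miRNAs from 87.4 to 136. Of these lists, members at or below the limit on both arrays were miR-1a-3p, miR-142a-3p, miR-155-5p and miR-144-3p. The endothelial list of 2 went from 11.6 to 20.4, a rise that came from miR-126a-5p, which was under the limit on both arrays. The measured member, miR-126a-3p, had 11.6 for control and 11.3 for DSS. The part of these cells in the family's differences was not tested. After quantile normalisation the median difference was 0.44 for the gut epithelial miRNAs measured on both arrays (4 of 4). It was 0.06 for smooth muscle and fibroblast (7 of 8) and 0.24 for leukocyte miRNAs (3 of 6). The gut epithelial values depended on the scaling. Left unscaled, they were 0.11 for miR-192-5p, 0.02 for miR-194-5p, 0.41 for miR-215-5p and 0.01 for miR-375-3p.

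**Figure D4:**
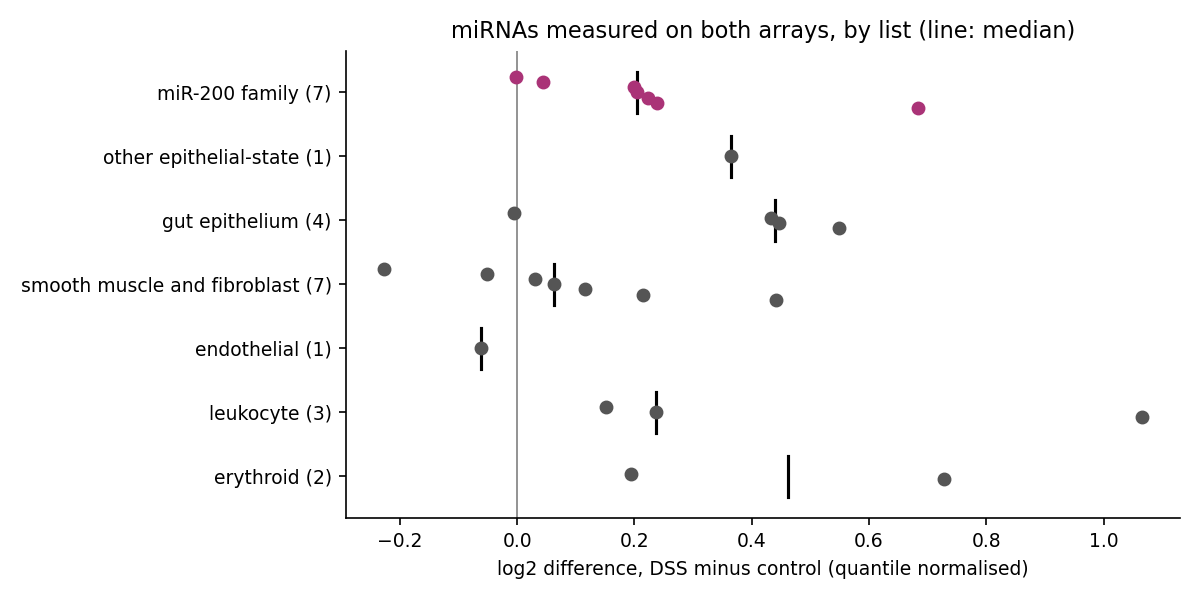
The log2 difference after quantile normalisation (DSS minus control, horizontal axis) of each miRNA measured on both arrays, by list, 1 point per miRNA. The list median is a black line and the number of miRNAs is in brackets. The family median is 0.20. The other medians are −0.06 (endothelial, 1 miRNA), 0.06 (smooth muscle and fibroblast), 0.24 (leukocyte), 0.36 (other epithelial-state, 1 miRNA), 0.44 (gut epithelium) and 0.46 (erythroid, the red cell list).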

How the data were processed

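Per the labels' protocols, Hy5-labelled total RNA (miRCURY LNA labelling kit) was hybridised in 1 colour to 2 arrays. For each of 3200 spots the deposited scanner files give median intensity of spot and background at 635 nm, per the file headers from scans at 3 gains. A table of the authors' processed values gives linear intensity. How they were made is not stated, but each equals spot minus trimmed blank mean (45 of 896 blanks left out on each side) times 0.563 (control) or 0.787 (DSS), with a largest deviation of 5.4e-06. Limits used the same trimmed blanks.

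Spot intensities were corrected with normexp (offset 50, all spots; limma 3.58.1, R 4.3.3), log2 transformed and quantile normalised over 1899 miRNA probes; 1 flagged probe was left out. Probes naming several miRNAs (12) stand for each. The procedure was checked on simulated arrays with known changes of 2-fold or more in probes well over the blanks. Smaller changes and dimmer probes were not covered by that check. A call means 2-fold among probes measured on both arrays. Lower bounds use the quantile normalised values and the lowest value measured on the dim array. Alternatives covered scaling, background correction, the authors' values, the limit and the fold. All family probes were named; the nearest non-members were the 3 brighter than the median closest in difference. Members and lists were chosen with earlier results of these data known. Sequences are from RefSeq (GRCm38.p6).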

Additional observations from a re-analysis of the deposited data

How the results depend on the processing

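With 1 array per group, no library could be left out. No paired analysis was possible because each group holds 1 array. The number of family probes measured on both arrays was 5 or 6 under the 3 other limits (3 SD, negative controls, blanks of the same block), against 7. The family median of 0.20 became 0.014 with median scaling, 0.40 with blank subtraction, 0.050 with the spot background subtracted, 0.68 in the authors' values, 0.044 for 5p arms only, and −0.86 with spike scaling. All probes then had a median of −1.02, and 0 family probes were higher. In 9 other settings the median moved by less than the control spot spread. The number at least 2-fold apart was 1 with spike scaling, with blank subtraction, in the authors' values and at 1.5-fold, and 0 in the 9 others. miR-200b-3p turned to −0.41 (median scaling), −0.21 (75th percentile), −0.31 (no scaling) and −1.28 (spike scaling). miR-200a-3p was −0.08 with median scaling. Spike scaling turned it to −0.95, miR-200c-3p to −0.80, miR-429-3p to −0.79 and miR-200a-5p to −0.64. The excess of miR-200c-3p over miR-200b-3p reached 0.83 with the spot background subtracted. Over all 995 probes, 5 were 2-fold higher and 10 lower, against 0 and 63 (median scaling), 2 and 41 (75th percentile), 1 and 51 (no scaling), 0 and 549 with spike scaling, 34 and 44 with blank subtraction, 16 and 25 with offset 0, 3 and 6 with no background correction, 21 and 21 with the spot background subtracted, and 89 and 41 in the authors' values. Median scaling moved the median of all probes by −0.15, spike scaling by −1.02, and the authors' values by 0.21. The cause of these shifts was not tested. The 5p arms lie too near the blanks for their folds to be read.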
